A study of Homo sapiens with 12 samples.

Results

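The genes described here are AGR2 and 9 other protein disulfide isomerases of the human endoplasmic reticulum (ER): AGR3, P4HB, PDIA3, PDIA4, PDIA5, PDIA6, TXNDC5, ERP44 and ERP29. They were chosen by name, as the rows of the count table whose Ensembl ID carries one of these symbols, and all 10 were found among the 63677 IDs of the table. AGR2 had been seen among the largest falls on USP22 depletion in these data before the set was put together, so values for depletion are given as a description, without a test. All 10 were among the 26076 genes that passed the filter on low counts, and AGR3 passed only through the shRNA control, where its counts were highest.

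RNA was measured in LNCaP cells, a human prostate cancer line that responds to androgen, grown in hormone-proficient medium, in 4 groups of 3 libraries. The first pair was USP22 overexpression and its pLPLUC vector control. The second was depletion of USP22 by 1 shRNA, and a control shRNA, and both of these groups had been given doxycycline for 5 days, at 1 ug/mL and renewed every 48 hours. USP22 is the ubiquitin protease of the SAGA transcriptional coactivator complex. The sources used here do not say whether the lines are clones or pools, or whether the replicates were separate cultures, so p-values measure the spread between these libraries, which may be technical.

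Protein disulfide isomerases are ER proteins with thioredoxin folds that make, break and rearrange the disulfide bonds of newly made secreted and membrane proteins. Most use a pair of cysteines that is reoxidised by the ER oxidases, and many return to the ER from the Golgi through KDEL receptors. AGR2 and its paralog AGR3 keep only the first cysteine of that pair. AGR2 is needed for mucin production in the mouse intestine, is induced by androgen in prostate cancer cells and can be secreted. Genes of the ER folding machinery, several PDI genes among them, are induced by the unfolded protein response through ATF6 and XBP1, which bind the ER stress response element (ERSE) in promoters.

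The promoters of 9 genes, 12 in all, were read from RefSeq (GRCh38.p14, while the reads were aligned to hg19). PDIA3 had no promoter among them and was not searched. The 4 shown here are those of AGR2 and AGR3, which lie next to each other on chromosome 7, that of PDIA5, which fell on overexpression and whose window lies wholly outside exons, and the second of PDIA6, the 1 with an ERSE. Each runs 5′ to 3′ on the gene's own strand, with bases in annotated exons left out, and capitals mark the motif letters found. They lie at chr7:16805081-16805249 on the minus strand (AGR2), chr7:16881988-16882233 on the minus strand (AGR3), chr3:123066775-123067024 on the plus strand (PDIA5) and chr2:10812845-10813035 on the minus strand (PDIA6).
AGR2: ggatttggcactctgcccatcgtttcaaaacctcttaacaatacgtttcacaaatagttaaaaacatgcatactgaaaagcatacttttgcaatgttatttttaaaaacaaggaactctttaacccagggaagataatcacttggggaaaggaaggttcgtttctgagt
AGR3: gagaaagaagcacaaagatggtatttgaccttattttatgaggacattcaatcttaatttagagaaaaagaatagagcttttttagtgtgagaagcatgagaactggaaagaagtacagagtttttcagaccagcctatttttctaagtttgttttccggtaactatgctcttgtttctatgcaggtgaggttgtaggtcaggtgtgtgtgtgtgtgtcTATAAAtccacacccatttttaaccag
PDIA5: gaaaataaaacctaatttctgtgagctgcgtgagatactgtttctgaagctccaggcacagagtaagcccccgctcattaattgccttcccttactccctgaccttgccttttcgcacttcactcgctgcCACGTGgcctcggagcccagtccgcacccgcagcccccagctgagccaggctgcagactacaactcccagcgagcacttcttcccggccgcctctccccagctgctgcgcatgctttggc
PDIA6: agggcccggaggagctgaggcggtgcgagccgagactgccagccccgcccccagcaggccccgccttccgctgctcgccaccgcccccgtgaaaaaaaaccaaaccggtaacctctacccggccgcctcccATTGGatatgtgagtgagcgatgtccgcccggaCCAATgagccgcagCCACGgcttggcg

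The 250 bases before each start were searched on both strands for 9 motifs. The AGR2 window held none of them. Those without a match in any of the 12 windows were the forkhead motifs TGTTTAC and TGTTTGC, present in 2.98% and 3.23% of 35116 human promoter windows of the same length, the short androgen element TGTTCT, in 12.4%, and the element called ERSE-II, ATTGG and CCACG with 1 base between, in 0.0513%. The ERSE, CCAAT and CCACG with 9 bases between, was found in the second PDIA6 promoter 86 bases before the start and in 0.074% of all windows. The same window held a second CCAAT on the other strand, and the first 5 letters of an ERSE are themselves a CCAAT box. CCAAT, in 32% of all windows, was also found in P4HB, PDIA4, TXNDC5 and ERP44. The E-box CACGTG, in 6.34% of all windows, stood once in PDIA5 and at 3 places in ERP29, TGACGTGG, in 0.612%, in the second TXNDC5 promoter, and TATAAA, in 10.7%, in AGR3 31 bases before the start and in P4HB. The AGR2 and AGR3 windows held 40.4% and 36.4% G and C, below the 45.6% to 82% of the other 10 windows. These matches describe letters only.

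The libraries held 77607469 to 103690001 counted reads, and USP22 followed the labels in all 12. USP22 stood at 1498, 1406 and 1495 CPM (counts scaled to library size with TMM factors) on overexpression, against 481.6, 490.6 and 565.2 CPM in the vector control (log2 fold change 1.52, edgeR adjusted p = 4.29e-10, and 1.59 without vector control replicate 3). It stood at 256.9, 265.3 and 250.6 CPM on depletion, against 479.6, 473.4 and 479.7 CPM in the shRNA control (log2 fold change -0.89, edgeR adjusted p = 5.41e-08). Vector control replicate 3 stood apart from its group: the SD of its log2 values around its group mates was 0.59, against 0.46 for both others and 0.33 to 0.41 in the other groups, so differences against the vector control are also given without it. All 10 luminal prostate markers were above 1 CPM on average. Their summed level was 4725 to 4880 CPM on overexpression and 5033 to 5389 CPM in its vector control, and 4599 to 5108 CPM on depletion and 6439 to 6640 CPM in the shRNA control. Much of these gaps lay in KLK3, 1 of the 10. It stood at 856.1 to 903 CPM on overexpression and 1155 to 1413 CPM in the vector control. On depletion it stood at 290.4 to 358 CPM, against 1394 to 1464 CPM in the shRNA control. Of 7 markers of basal cells or other epithelial lines 3 were above 1 CPM on average and KRT5, TP63 and CAV1 were at or near 0. Their sum was 7.65 to 8.70 CPM on overexpression, against 6.78 to 7.65 CPM in vector control libraries, 10.03 to 10.7 CPM on depletion and 11.9 to 13.0 CPM in the shRNA control. The 5 fibroblast markers, with COL1A2 and DCN at or near 0, summed to 10.7 to 12.5 CPM on overexpression and 9.99 to 13.8 CPM in vector control libraries, and to 13.7 to 18.0 CPM on depletion and 17.1 to 18.2 CPM in the shRNA control. Markers of leukocytes and of goblet and intestinal cells summed to less than 1.5 CPM in every library. The part of these differences in the results below was not tested, and in bulk RNA fewer cells of a type and less RNA per cell cannot be told apart.

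Read per length of exon (RPKM, with GENCODE 29 exon lengths), the abundant members were the general folding enzymes. PDIA3, the isomerase that works with calnexin and calreticulin on glycoproteins, averaged 123 RPKM over the 12 libraries (113 to 139). PDIA4, an isomerase with several catalytic domains, averaged 113 RPKM (102 to 133), P4HB, the founding isomerase of the family, 104 RPKM (89.2 to 133), and the ranges of these 3 overlapped. PDIA6, a partner of the chaperone HSPA5, followed below that range at 68.4 RPKM (61.0 to 78.8), and ERP29, a chaperone with no active-site cysteine pair, at 29.4 RPKM (22.9 to 42.3). ERP44, which holds back client proteins and the ER oxidases in the early secretory pathway by thiol bonds, averaged 12.8 RPKM (9.67 to 14.4), and PDIA5 10.3 RPKM (8.85 to 12.9). AGR2 averaged 7.80 RPKM, and its range of 2.42 to 16.6 spanned those of both ERP44 and PDIA5. TXNDC5 stood at 1.143 RPKM (0.945 to 1.47) and AGR3 at 0.058 RPKM, with 0 to 21 reads in a library.

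AGR2 was also the member that varied most between groups after AGR3: its highest group mean was 5.01 times its lowest. In both genes the highest group was the shRNA control, and in AGR2 the lowest was depletion. AGR3 had 3, 4 and 0 reads both on depletion and in the vector control, too few to put these groups in order. Depletion against the shRNA control is the comparison AGR2 had been noticed in, and AGR3 passed the filter only through the shRNA control. Their places in this order are therefore a description only. For the 8 remaining members this ratio ran from 1.139 for PDIA4 to 1.55 for ERP29, with TXNDC5 at 1.37, PDIA5 at 1.34, ERP44 at 1.24, P4HB at 1.23 and PDIA3 and PDIA6 at 1.18. AGR2 made up 0.657% to 0.711% of the summed CPM of the 10 genes on overexpression and 1.09% to 1.41% in the vector control. It made up 0.377% to 0.485% on depletion and 1.91% to 2.25% in the shRNA control.

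AGR2 RNA was lower both when USP22 was raised and when it was lowered, each against its own control. AGR2 was chosen with earlier results of these data known, so its p-values describe these libraries and are not a fresh test. On overexpression AGR2 (ENSG00000106541) stood at 12.6, 11.6 and 12.1 CPM, against 27.0, 24.2 and 23.9 CPM in the vector control. All 3 overexpression libraries lay below all 3 vector controls. The means were 12.1 ± 0.510 CPM on overexpression and 25.0 ± 1.70 CPM in the vector control (SD, n = 3 each), 0.484 of that control (log2 fold change -1.05 with SE 0.11 and edgeR adjusted p = 1.79e-05). Without vector control replicate 3 the log2 fold change was -1.08 (edgeR adjusted p = 6.89e-08), and AGR2 was called, that is, had an adjusted p under 0.05 over all tested genes, in all 20 alternative settings run, with log2 fold changes of -1.08 to -0.99 and adjusted p of 1.12e-29 to 0.000529.

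On depletion AGR2 stood at 9.25, 9.63 and 6.88 CPM, against 42.6, 47.2 and 39.4 CPM in the shRNA control. The groups did not overlap and were far apart. The mean was 8.59 ± 1.49 CPM on depletion and 43.0 ± 3.94 CPM in the shRNA control (SD, n = 3 each), 0.200 of that control (log2 fold change -2.32, SE 0.11), which is the difference AGR2 had been noticed for. The 2 comparisons share no library, although they share the estimate of the spread.

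The controls themselves differed in AGR2. The shRNA control averaged 1.72 times the vector control (log2 fold change 0.78, SE 0.10, or 0.75 without vector control replicate 3), and its 3 libraries lay above all 3 vector controls. This difference gets no p, because it shares the shRNA control with the comparison AGR2 was noticed in. Over the 4 groups, AGR2 levels ran from depletion through overexpression and the vector control up to the shRNA control, with no overlap between neighbouring groups. The control lines differ at least in vector and in doxycycline, and how the lines and libraries were made is not fully given. The parts of these in the difference cannot be told apart.

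**Figure D1:**
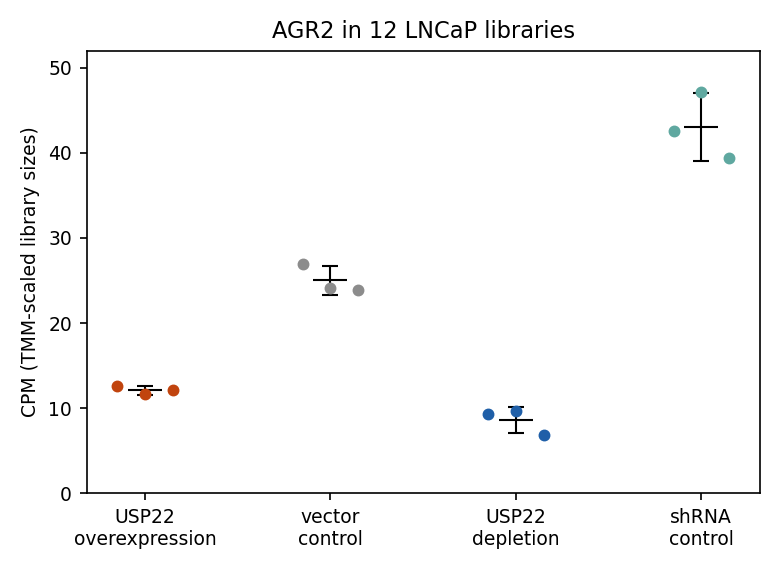
AGR2 level in each of the 12 libraries in CPM, on a linear axis from 0, by group. Points are libraries, wide bars the group mean and whiskers 1 SD (n = 3): the overexpression libraries (11.6 to 12.6 CPM) lie below the vector controls (23.9 to 27.0 CPM), and the depletion libraries (6.88 to 9.63 CPM) below the shRNA controls (39.4 to 47.2 CPM).

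AGR3, the neighbour and paralog of AGR2, was close to silent. It had 9, 0 and 2 reads on overexpression and 3, 4 and 0 reads in the vector control, too few for a difference to be detectable (edgeR adjusted p = 0.825, and 0.993 without vector control replicate 3). It had 3, 4 and 0 reads on depletion, against 21, 16 and 14 reads in the shRNA control. The shRNA control thus had the highest counts of AGR3, as it had the highest levels of AGR2. Since AGR3 passed the filter only through the shRNA control, its difference between the controls (edgeR adjusted p = 0.0251, 0.0603 without vector control replicate 3, and 0.00596 to 0.07 over the alternatives) is not counted as support for one.

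The genes on either side of the pair were not called on overexpression. TSPAN13, a tetraspanin gene next to AGR2, had a log2 fold change of 0.03 on overexpression (edgeR adjusted p = 0.897), which turned to -0.06 without vector control replicate 3 (edgeR adjusted p = 0.728), and fell by 0.34 on the log2 scale on depletion (edgeR adjusted p = 0.0107). AHR, the aryl hydrocarbon receptor gene on the other side of AGR3, had log2 fold changes of -0.03 on overexpression (edgeR adjusted p = 0.897, and -0.08 without vector control replicate 3) and -0.14 on depletion (edgeR adjusted p = 0.187).

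Among all 10 genes, 4 were called on overexpression, all lower: AGR2, ERP29, P4HB and PDIA5. The genes were chosen with earlier results of these data known, so this count is a description and not a fresh test. Of all 26076 tested genes 4.11% were called in this comparison, 2.6% lower and 1.51% higher. The same 4 members had overexpression libraries that all lay below the vector controls, as did 12.8% of all tested genes, and in none did they all lie above, as they did in 9.64% of tested genes. The median log2 fold change of the 10 was -0.14, against -0.01 over all tested genes, and -0.07 without vector control replicate 3, against 0.00 over the genes tested then.

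ERP29 stood at 91.2, 94.6 and 94.4 CPM on overexpression, against 109.2, 109.9 and 130.4 CPM in the vector control. The log2 fold change was -0.32 (with SE 0.07 and an edgeR adjusted p = 0.0224), and -0.23 without vector control replicate 3 (edgeR adjusted p = 0.00715), whose value was the highest of the group. P4HB, which is also a subunit of collagen prolyl 4-hydroxylase and of the lipid transfer protein complex with MTTP, stood at 472.8, 481.3 and 522.6 CPM, against 561.6, 553.7 and 704.5 CPM in the vector control. Its log2 fold change was -0.30 (with SE 0.08 and an edgeR adjusted p = 0.0416), moving to -0.18 without vector control replicate 3 (edgeR adjusted p = 0.0235). The same library was again the highest.

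PDIA5, a less abundant isomerase of the family, stood at 41.0, 40.0 and 41.5 CPM on overexpression, against 47.5, 46.4 and 52.02 CPM in the vector control. Its log2 fold change was -0.25 (with SE 0.06 and an edgeR adjusted p = 0.0259), and -0.20 without vector control replicate 3 (edgeR adjusted p = 0.00857). These 3 smaller differences were less stable than that of AGR2. ERP29 was called in 15 of 20 alternatives (adjusted p of 0.00188 to 0.135), PDIA5 in 11 (0.00155 to 0.186) and P4HB in 10 (0.000726 to 0.225). In addition, AGR2 alone of the 10 genes was called when any 1 overexpression library or depletion replicate 1 was left out, or with only the 6 libraries compared.

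The other members were not called on overexpression. PDIA3 stood at 496.2, 479.9 and 491.0 CPM, against 496.4, 490.9 and 490.6 CPM in the vector control (log2 fold change -0.01 with SE 0.05 and edgeR adjusted p = 0.945, and -0.02 without vector control replicate 3). PDIA6 stood at 256.8, 256.8 and 260.6 CPM, against 252.7, 250.2 and 302.5 CPM in the vector control (log2 fold change -0.06, or 0.04 without vector control replicate 3). In both genes the groups overlapped. PDIA4 had a log2 fold change of -0.14 (with SE 0.08 and an edgeR adjusted p = 0.332), TXNDC5 of -0.13 (with SE 0.11 and an edgeR adjusted p = 0.551) and ERP44 of 0.04 (with SE 0.08 and an edgeR adjusted p = 0.826). None was called without vector control replicate 3 either, where they were at -0.03, -0.06 and -0.07.

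**Figure D2:**
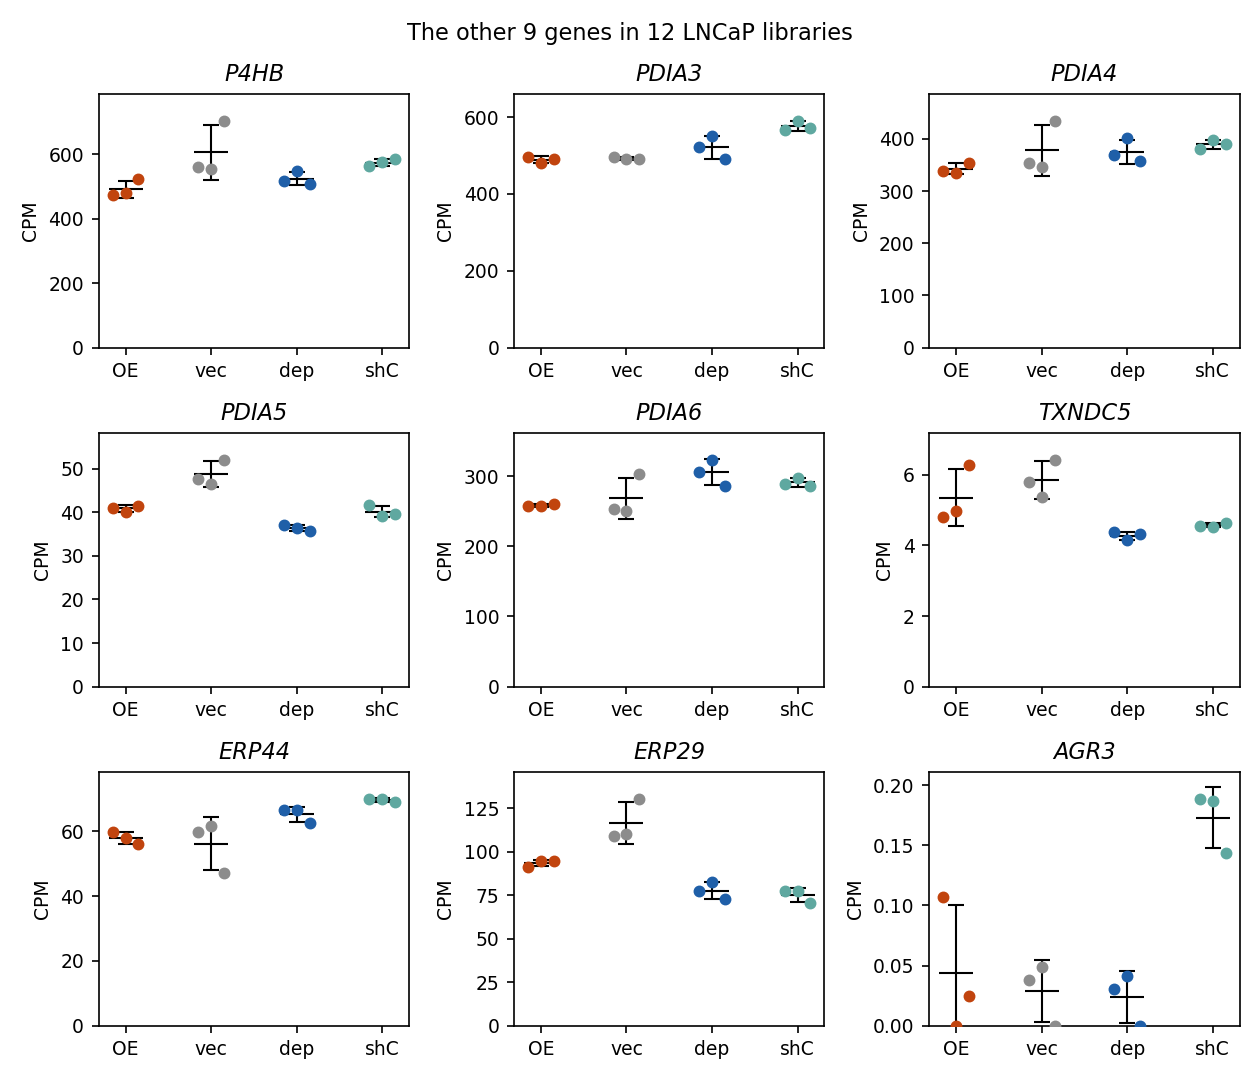
Levels of the 9 other genes in each library in CPM, each panel on its own linear axis from 0, for USP22 overexpression (OE), the vector control (vec), USP22 depletion (dep) and the shRNA control (shC). Points are libraries, wide bars means and whiskers 1 SD (n = 3), with whiskers of AGR3 that reach below 0 left out of the panel: ERP29, P4HB and PDIA5 are lower on overexpression than in the vector control, vector control replicate 3 is the highest library of all 12 for P4HB, PDIA4, PDIA5, TXNDC5 and ERP29, and AGR3 is highest in the shRNA control.

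On depletion the 8 members other than AGR2 and AGR3 differed little from the shRNA control. In 7 of 10 all depletion libraries lay below the shRNA controls, as did 21.5% of all tested genes. Nothing is read from this count, since this comparison was known when the genes were chosen. The median log2 fold change of the 10 was -0.11, against 0.00 over all tested genes.

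PDIA3 stood at 521.0, 551.9 and 490.8 CPM on depletion, against 567.1, 590.4 and 572.5 CPM in the shRNA control (log2 fold change -0.15, SE 0.05). PDIA5 stood at 37.1, 36.4 and 35.7 CPM, against 41.6, 39.2 and 39.6 CPM in the shRNA control (log2 fold change -0.14, SE 0.06). P4HB stood at 516.3, 548.2 and 509.5 CPM, against 563.9, 574.9 and 584.7 CPM in the shRNA control (log2 fold change -0.13, SE 0.08). In these 3 genes the groups did not overlap, and the means differed by less than 10%. ERP29 stood at 77.5, 82.5 and 72.6 CPM, against 77.5, 77.2 and 70.7 CPM in the shRNA control, with overlapping libraries (log2 fold change 0.04, SE 0.07). TXNDC5 (-0.10), ERP44 (-0.09), PDIA4 (-0.06) and PDIA6 (0.07) had log2 fold changes on depletion of about their standard errors, which were 0.07 to 0.11. Those errors rest on a spread shared by all 12 libraries, including vector control replicate 3, which is not in this comparison. The groups did not overlap in TXNDC5 and ERP44 either. ERP44 stood at 66.6, 66.6 and 62.6 CPM on depletion, against 70.0, 70.0 and 68.9 CPM in the shRNA control. In PDIA4 and PDIA6 the groups overlapped.

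Between the shRNA control and the vector control AGR2 and AGR3 are left out of the count for the reasons given above. Of the other 8 members 5 were called, 2 higher (PDIA3 and ERP44) and 3 lower (ERP29, PDIA5 and TXNDC5). This count too is a description, since the genes were chosen with earlier results known. Of all tested genes 43% were called, 21.7% higher and 21.3% lower. Libraries of the same 5 did not overlap, against 25.6% higher and 24.2% lower over all tested genes. Of the 8, 7 were called without vector control replicate 3, 4 higher and 3 lower. In that fit 12344 of 26896 tested genes were called, 6350 higher and 5994 lower. The shRNA control libraries are those of the depletion comparison.

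ERP29 stood at 77.5, 77.2 and 70.7 CPM in the shRNA control, against 109.2, 109.9 and 130.4 CPM in the vector control, with no overlap (log2 fold change -0.63 with SE 0.07 and edgeR adjusted p = 3.62e-06, and -0.55 without vector control replicate 3). ERP44 stood at 70.0, 70.0 and 68.9 CPM in the shRNA control, against 59.9, 61.7 and 47.0 CPM in the vector control. Its log2 fold change was 0.31 (with SE 0.08 and an edgeR adjusted p = 0.00594), which became 0.19 without vector control replicate 3, here the lowest library (edgeR adjusted p = 0.00142, and 7.99e-05 to 0.0477 over the alternatives). PDIA3 was higher in the shRNA control (log2 fold change 0.23, edgeR adjusted p = 0.0023), and PDIA5 (-0.28, edgeR adjusted p = 0.00131) and TXNDC5 (-0.36, edgeR adjusted p = 0.0138) were lower. All 3 were called without vector control replicate 3 too, at 0.22, -0.23 and -0.29. P4HB (-0.08), PDIA4 (0.04) and PDIA6 (0.12) were not called, with edgeR adjusted p of 0.461, 0.684 and 0.204. Without vector control replicate 3 PDIA4 (0.15, edgeR adjusted p = 0.0137) and PDIA6 (0.21, edgeR adjusted p = 0.000944) were called higher and P4HB turned to 0.04. Over the alternatives the adjusted p ran from 0.0137 to 0.978 for PDIA4, called in 1 of 20, and from 0.000944 to 0.535 for PDIA6, called in 2.

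**Figure D3:**
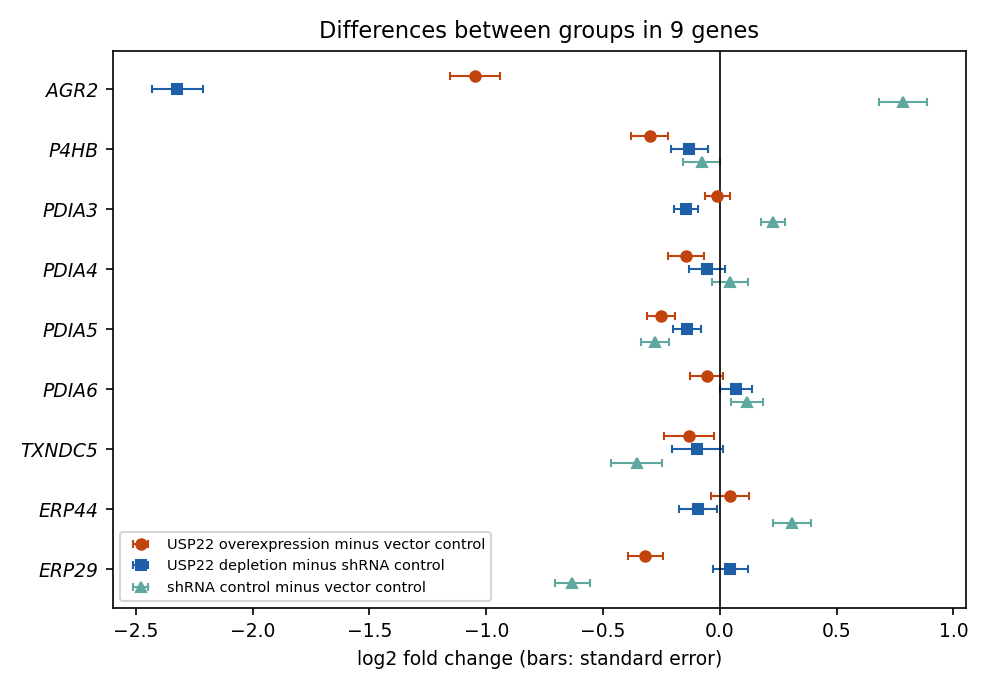
Log2 fold changes of 9 of the 10 genes (AGR3 has too few reads to be drawn) for overexpression minus vector control, then for depletion minus its shRNA control, and for shRNA control minus vector control. Points are fitted values and bars 1 standard error: AGR2 lies at -1.05 and -2.32 in the USP22 comparisons and at 0.78 between the controls, while the other 8 lie between -0.63 and 0.31.

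Counting limits touch several members. TXNDC5 shared 60.6% of its exon bases (2658 of 4387) on the same strand with the readthrough gene BLOC1S5-TXNDC5, which had 0 reads in all 12 libraries. TXNDC5 stood at 4.80, 4.96 and 6.27 CPM on overexpression, against 5.79, 5.36 and 6.43 CPM in the vector control, and at 4.37, 4.15 and 4.32 CPM on depletion, against 4.54, 4.54 and 4.64 CPM in the shRNA control. Its counts may cover only part of the gene, which was not tested, and its place in the order of levels is uncertain. PDIA5 shared 12.2% of its exon bases with SEC22A on the same strand. PDIA6 shared 25.2% with ATP6V1C2, ERP29 17.5% with AC073575.2, PDIA3 14.8% with ELL3 and P4HB 9.98% with AC145207.3 on the opposite strand, and the strand setting of the counting is not given in the sources used here. PDIA3 also has a near copy, the pseudogene PDIA3P1, at 6.35 to 8.67 CPM, whose reads could have been split from those of the gene.

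The genes whose pattern over the 12 libraries was most like that of AGR2 were GBP1, PGC, ACTA2, ZNF608 and ZNF350, none of them a disulfide isomerase. Likeness was the root mean square difference of centred log2 CPM among 11032 genes with a mean of at least 5 CPM, and it was 0.15 for GBP1, 0.25 for PGC, 0.31 for ACTA2, 0.35 for ZNF608 and 0.37 for ZNF350. The 8 other members above that minimum, all but AGR3, differed from AGR2 by 0.84 to 0.94 on this measure. Their ranks among the 11032 genes ran from 1423 for P4HB to 5644 for ERP29, so many genes were less like AGR2 than they were. GBP1, an interferon-induced guanylate-binding protein, stood at 5.89, 6.19 and 5.97 CPM on overexpression, against 12.2, 13.4 and 11.7 CPM in the vector control. It stood at 4.54, 3.42 and 3.41 CPM on depletion, against 19.6, 21.98 and 20.3 CPM in the shRNA control. PGC, the protease precursor pepsinogen C, stood at 6.66, 6.16 and 6.55 CPM on overexpression, against 9.41, 9.69 and 11.6 CPM in the vector control. As in AGR2, its levels were lowest on depletion, at 3.95, 3.92 and 3.19 CPM, against 15.4, 15.1 and 14.7 CPM in the shRNA control. These genes were picked for this pattern, so their differences are a description. ACTA2, smooth muscle actin, had log2 fold changes of -1.58 on overexpression and -2.84 on depletion.

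The wider ER folding machinery was described with 8 lists of 76 genes, 70 of them tested. The lists were chosen with earlier results of these data known. Counts of calls and p-values in them are therefore a description of single genes, not a test of the lists. On overexpression 5 of 70 were called, all lower, against 4.11% of all tested genes. They were QSOX1, a secreted and Golgi thiol oxidase (log2 fold change -0.65, edgeR adjusted p = 0.000313), KDELR3, a receptor that returns KDEL proteins to the ER (-0.46, edgeR adjusted p = 0.0038), ATF4 (-0.32, edgeR adjusted p = 0.0165) and XBP1 (-0.28, edgeR adjusted p = 0.0048), transcription factors of the unfolded protein response, and TMX2, a membrane-bound relative of the PDIs (-0.25, edgeR adjusted p = 0.0289). QSOX1 stood at 87.5, 85.7 and 95.2 CPM on overexpression, against 125.7, 129.4 and 165.5 CPM in the vector control. XBP1 stood at 164.6, 170.7 and 173.7 CPM, against 207.9, 201.2 and 208.5 CPM in the vector control. Neither gene's groups overlapped. Without vector control replicate 3 these 5 stood at -0.51 for QSOX1, -0.52 for KDELR3, -0.23 for ATF4, -0.27 for XBP1 and -0.25 for TMX2, and 7 list genes were called, all lower. In that fit 1842 of 26896 tested genes were called, 1088 lower and 754 higher. QSOX1 was called in all 20 alternatives. XBP1 and KDELR3 were called in 19, all but the fit to only the 6 libraries compared (adjusted p of 0.078 and 0.0953). ATF4 was called in 17, its call being lost in that fit and without overexpression replicate 1 or 2 (adjusted p of up to 0.106). TMX2 was called in 10, its call being lost in that fit and without any 1 overexpression or shRNA control library, vector control replicate 1, or depletion replicate 1 or 2 (adjusted p of up to 0.142). None of 15 ER chaperones and lectins, 5 partners of PDIA3 in MHC class I loading or 11 tested regulators and clients of AGR2 was called on overexpression.

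For depletion too the lists were chosen with earlier results known, so nothing is read from their counts. On depletion 25 of 70 list genes were called, 17 lower and 8 higher, against 19.8% of all tested genes, 10.4% lower and 9.4% higher. Through the shared estimate of the spread, 37 list genes were called without vector control replicate 3, 26 lower and 11 higher. In that fit 8359 of 26896 tested genes were called, 4282 lower and 4077 higher. In the list of MHC class I loading partners of PDIA3, 4 of 5 fell: TAPBP, which encodes tapasin, the partner that PDIA3 binds by a disulfide bond (log2 fold change -0.74, edgeR adjusted p = 3.13e-07), its relative TAPBPL (-0.73, edgeR adjusted p = 0.00104), the peptide transporter subunit TAP1 (-0.71, edgeR adjusted p = 4.21e-05) and the class I light chain B2M (-0.31, edgeR adjusted p = 0.00729). The list's median was -0.71, against 0.00 over all tested genes, and TAP2 had -0.19 (edgeR adjusted p = 0.138). The call of B2M was lost without shRNA control replicate 1 or 2 or depletion replicate 1 or 3 (adjusted p of up to 0.0899). TAPBP stood at 66.5, 64.4 and 63.6 CPM on depletion, against 109.5, 107.1 and 108.6 CPM in the shRNA control. On overexpression it stood at 70.0, 65.9 and 71.4 CPM, against 63.1, 65.4 and 71.4 CPM in the vector control. The depletion libraries of TAPBP thus lay in the range of the overexpression and vector control libraries, and the shRNA control libraries above all others.

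Of the 15 ER chaperones and lectins 5 fell on depletion and none rose (median -0.05). HSPA5, the main ER chaperone of the HSP70 family, stood at 515.6, 511.4 and 529.2 CPM, against 711.5, 783.7 and 844.5 CPM in the shRNA control (log2 fold change -0.59, edgeR adjusted p = 3e-05). DNAJB9 (-0.56, edgeR adjusted p = 0.0122) and DNAJC3 (-0.30, edgeR adjusted p = 0.0123), cochaperones of HSPA5, and CRELD2 (-0.38, edgeR adjusted p = 0.0244) fell with it. HSPA5 was called in all 20 alternatives and the other 3 in 15 each. The calls of DNAJB9 (adjusted p of up to 0.0711) and DNAJC3 (up to 0.104) were lost without shRNA control replicate 1 or 2 or any 1 depletion library. That of CRELD2 (up to 0.118) was lost without any 1 shRNA control library or depletion replicate 1 or 3. In the shRNA control HSPA5 was higher than in the vector control by 0.47 (edgeR adjusted p = 7.39e-05) and DNAJB9 by 0.86 (edgeR adjusted p = 0.000172) on the log2 scale, or by 0.50 and 0.65 without vector control replicate 3.

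Of 11 tested genes of ER thiol oxidation 3 rose and 2 fell on depletion. GPX8, an ER glutathione peroxidase, stood at 23.5, 24.9 and 22.4 CPM, against 12.8, 13.8 and 12.8 CPM in the shRNA control (log2 fold change 0.85, edgeR adjusted p = 2.06e-06). PRDX4, an ER peroxiredoxin, rose by 0.30 (edgeR adjusted p = 0.00296), while QSOX1 (-0.84, edgeR adjusted p = 4.59e-06) and SELENOM, an ER selenoprotein (-0.51, edgeR adjusted p = 0.00857), fell. The call of SELENOM was lost without depletion replicate 3 (adjusted p = 0.0533). The oxidases that recharge PDIs were not called: ERO1A had -0.12 (edgeR adjusted p = 0.375) and ERO1B -0.01 (edgeR adjusted p = 0.962). QSOX1 was thus lower in both USP22 comparisons, each against its own control, as AGR2 was. Its mean was 245.9 CPM in the shRNA control and 140.2 CPM in the vector control. That log2 fold change was 0.81 (edgeR adjusted p = 1.46e-06), or 0.94 without vector control replicate 3. On depletion its mean of 137.3 CPM was close to that of the vector control. AGR2, unlike QSOX1, was far below both controls on depletion.

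Of 11 other tested PDI family members 4 rose and 1 fell on depletion. The membrane-bound TMX1 (0.31, edgeR adjusted p = 0.0132) and TMX4 (0.30, edgeR adjusted p = 0.00508) and the small ER thioredoxin TXNDC12 (0.27, edgeR adjusted p = 0.00555) were among those that rose. The call of TMX1 was lost without shRNA control replicate 3 or depletion replicate 2 (adjusted p of up to 0.0745). PDIA2, known as the pancreatic PDI, fell by 1.30 on the log2 scale (edgeR adjusted p = 0.000393), at 1.34, 1.75 and 1.21 CPM on depletion, against 4.29, 3.14 and 3.15 CPM in the shRNA control. Of 10 genes of the unfolded protein response 1 rose and 1 fell: ATF4 rose by 0.44 (edgeR adjusted p = 0.000306) and ATF6B, a relative of ATF6, fell by 0.58 (edgeR adjusted p = 6.79e-05). XBP1 was not called on depletion (0.10, edgeR adjusted p = 0.199). ATF4 stood at 401.8, 404.3 and 422.7 CPM on overexpression, against 484.3, 476.6 and 568.6 CPM in the vector control, and at 331.8, 361.7 and 313.6 CPM on depletion, against 249.3, 248.9 and 245.7 CPM in the shRNA control. Of 3 KDEL receptors 1 fell, KDELR3 (-0.47, edgeR adjusted p = 0.000491), and none of 4 enzyme partners of P4HB was called.

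Of 11 tested regulators and clients of AGR2 3 fell on depletion, among them the ETS factor SPDEF (-0.33, edgeR adjusted p = 0.0206). SPDEF stood at 100.2, 109.2 and 95.3 CPM on depletion, against 130.8, 126.2 and 124.7 CPM in the shRNA control, and at 101.0, 98.9 and 109.8 CPM on overexpression, against 110.1, 109.0 and 145.1 CPM in the vector control. Its call on depletion was lost without shRNA control replicate 1 or 2 or depletion replicate 1 or 3 (adjusted p of up to 0.103). On overexpression the groups of SPDEF overlapped and the gene was not called (-0.23, edgeR adjusted p = 0.189, and -0.09 without vector control replicate 3). FOXA1, a forkhead factor reported to act on AGR2, was not called in either comparison (0.03 on overexpression, turning to -0.04 without vector control replicate 3, and 0.08 on depletion), and its relative FOXA2 had 0 reads in all libraries.

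**Figure D4:**
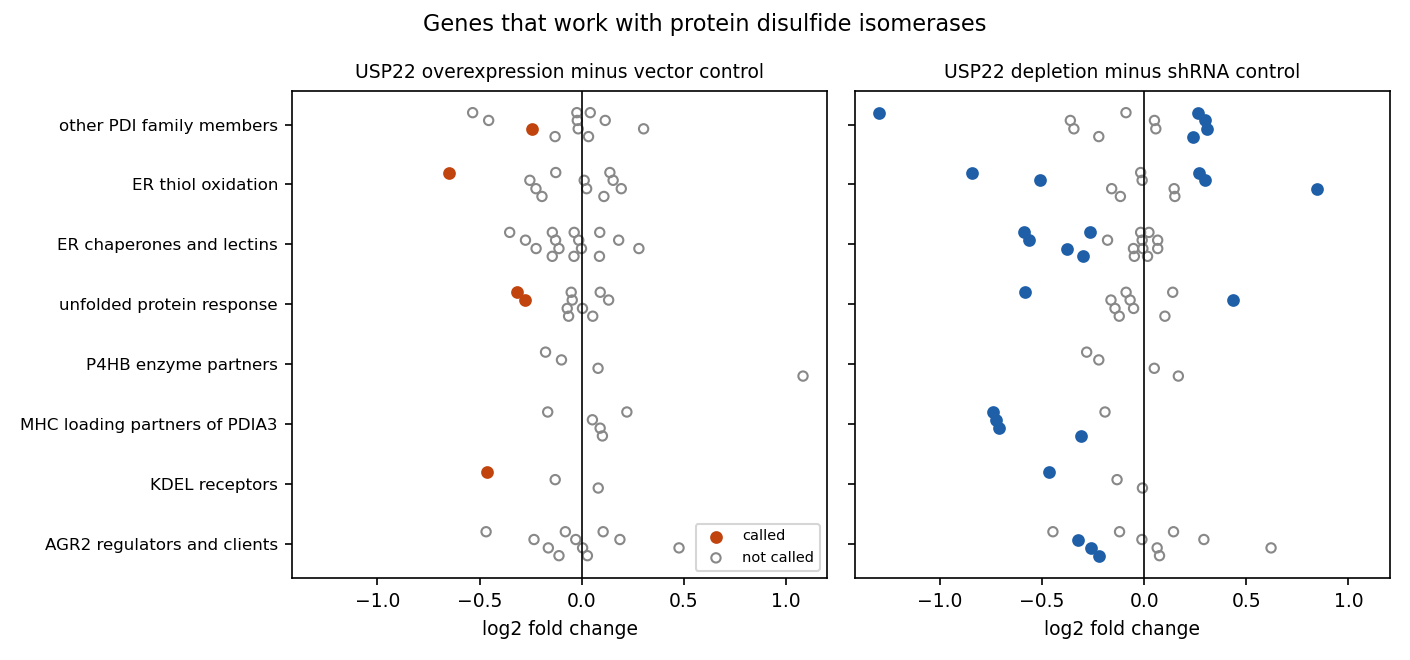
Log2 fold changes of the 70 tested genes of 8 lists, with overexpression minus vector control on the left and depletion minus its shRNA control on the right. Each point is a gene, filled where called (edgeR adjusted p under 0.05) and open where not: 5 genes are filled on the left, all below 0, and 25 on the right, 17 below and 8 above 0, with 4 of 5 MHC loading partners between -0.74 and -0.31.

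Between the shRNA control and the vector control 43 of 70 list genes were called, 29 higher and 14 lower, against 43% of all tested genes. Among other PDI family members 3 were called higher and 5 lower, and among genes of ER thiol oxidation 3 higher and 6 lower. ATF4 (-1.04, edgeR adjusted p = 9.18e-09) and XBP1 (-0.61, edgeR adjusted p = 1.08e-07) were lower in the shRNA control. So were PRDX4 (-0.69, edgeR adjusted p = 2.49e-07), TMX2 (-0.54, edgeR adjusted p = 1.92e-06) and TXNDC12 (-0.44, edgeR adjusted p = 2.35e-05). Higher there were PDIA2 (1.63, edgeR adjusted p = 1.79e-05), TAPBPL (1.15, edgeR adjusted p = 4.41e-06), the oxidase ERO1B (1.03, edgeR adjusted p = 3.68e-07), B2M (0.92, edgeR adjusted p = 6.83e-08) and TAPBP (0.70, edgeR adjusted p = 1.05e-07). Without vector control replicate 3, 47 were called, 32 higher and 15 lower, with ATF4 at -0.96, XBP1 at -0.60, PDIA2 at 1.86, TAPBPL at 1.32, ERO1B at 0.91, B2M at 0.88 and TAPBP at 0.75. PRDX4, TMX2 and TXNDC12 then stood at -0.64, -0.54 and -0.43. In that fit 12344 of 26896 tested genes were called. PDIA2, TAPBPL, TAPBP and B2M, higher in the shRNA control here, are among those that fell on depletion, and both comparisons use the same 3 shRNA control libraries.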

How the data were processed

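The authors deposited 1 table of raw counts per Ensembl gene ID from stranded total RNA libraries. The submitters' processing notes name hg19, DESeq2 1.14.1, featureCounts 1.5.0-p3 and STAR 2.5.2a. No source used here gives the strand setting, the annotation release or the rule for multiply mapped reads.

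Groups and replicate numbers came from the labels. The counts, 77607469 to 103690001 per library, were fitted with edgeR 4.0.16 (R 4.3.3, limma 3.58.1): filterByExpr by group (26076 genes), TMM, glmQLFit on all 12 libraries with 8 residual degrees of freedom, glmQLFTest, and Benjamini-Hochberg adjustment over every tested gene, with calls under 0.05. The procedure was run on counts simulated from its own fitted spread, which does not cover a library that stands apart from its group. The lowest chi-square of a replicate pair against counting noise was 6.87 per degree of freedom. It was scaled by total reads without TMM factors, so part of it may come from that scaling. Exon lengths, overlaps and neighbours came from GENCODE 29 and promoters from RefSeq. A symbol was found for 81.9% of IDs and 94.9% of those tested.

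The 10 genes, the lists and the tests were chosen with earlier results of these data known. From each list up to 4 called genes per comparison with a mean of at least 1 CPM and the largest fold change are named, and others where their role needs it. Some genes count in the list totals but are not reported here. Alternative settings were RLE scaling, a fit with no filter or with a minimum of 1 CPM in at least 3 libraries, limma voom, DESeq2 1.42.0, a fit to only the 6 libraries compared, the replicate number as a block, removal of the 20 most abundant genes, and omission of each library in turn.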

Additional observations from a re-analysis of the deposited data

How the results depend on the processing

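Calls on overexpression depended most on the processing. Genes called (1072) became 2062 with no filter, 1786 by DESeq2 and 327 with only the 6 libraries compared, and 501 to 1842 when 1 library was left out. Members called (4) became 1 with only the 6 libraries and 1 to 4 when 1 library was left out, with AGR2 called each time. List genes called (5) became 11 with no filter, 1 with only the 6 libraries and 3 to 7 when 1 library was left out. On depletion 5172 genes called became 8115 with only the 6 libraries and 3523 to 8359 when 1 library was left out, highest without vector control replicate 3. List genes called there ran from 17 to 37 when 1 library was left out. Between the controls 5 of the 8 members other than AGR2 and AGR3 were called, and 5 to 7 when 1 library was left out. Genes called there ran from 9514 to 12344 when 1 library was left out. The cause of these shifts was not tested.

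A few differences near 0 changed sign. On overexpression PDIA3 turned to 0.0081 with no filter, 0.0181 with a minimum of 1 CPM in 3 libraries and 0.0065 with only the 6 libraries. When 1 library was left out, log2 fold changes on overexpression ran from -0.0219 to 0.0087 for PDIA3, -0.11 to 0.036 for PDIA6, -0.0711 to 0.12 for ERP44 and -1.19 to 1.115 for AGR3. They ran from -0.0851 to 0.0038 for PDIA4 on depletion, and between the controls from -0.14 to 0.0405 for P4HB and -0.0189 to 0.15 for PDIA4. Of 297, 639 and 719 values of single genes on overexpression, on depletion and between the controls, 245, 605 and 698 kept their direction and their side of the threshold (for values without a test, moved by less than 1 SD).

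Same-numbered replicates did not deviate together (correlations of -0.02 to 0.08). The sources used here do not say whether the numbers pair the libraries, and these correlations cannot settle it. With the replicate number as a block 1098 genes, 4 members and 5 list genes were called on overexpression, 5272 genes and 25 list genes on depletion, and 11308 genes, 5 of those 8 members and 43 list genes between the controls. AGR3, with at most 21 reads, is limited by depth.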
